A study of Mus musculus with 16 samples.

Results

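The 10 genes described here are imprinted growth genes: H19, Igf2, Meg3, Rian, Mirg, Dlk1, Peg3, Cdkn1c, Igf2r and Plagl1. They were taken from the 29730 genes of the table by matching Ensembl identifiers to these symbols in the GENCODE annotation of GRCm38, and all 10 had a row and passed the filter on low counts. Messenger RNA came from the tibialis anterior, a shin muscle that lifts the foot, in 16 samples from males of C57BL/6N background at 7 weeks of age. Groups were 4 samples each. WT_PBS was wild type with PBS, WT_ASO wild type with ASO1 (an antisense oligonucleotide to Dnm2), KO_PBS the Bin1mck-/- knockout line with PBS, and KO_ASO that line with ASO1. The labels name the line but do not spell out what drives the deletion, and dose and schedule were not known for this work. Nothing in the labels ties same-numbered samples to a shared litter or day. The p-values below measure the spread between these samples.

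An imprinted gene is read mainly from the copy of 1 parent. H19, Meg3, Rian, Mirg, Cdkn1c and Igf2r are read mainly from the maternal copy, and Igf2, Dlk1, Peg3 and Plagl1 mainly from the paternal copy. H19 and the Meg3-Rian-Mirg row are noncoding RNAs that host small RNAs. Igf2 and Dlk1 encode growth and differentiation signals, Igf2r encodes the receptor that takes IGF2 to the lysosome, Cdkn1c encodes the cell-cycle inhibitor p57, and Peg3 and Plagl1 encode zinc-finger proteins. Many of these genes are known for high levels in fetal muscle that decline after birth, and H19 is known to stay high in adult muscle.

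On GRCm38, H19 (ENSMUSG00000000031, chr7:142575529-142578143, minus strand), Igf2 (chr7:142650766-142666816, minus strand) and Cdkn1c (chr7:143458339-143461050, minus strand) share the far end of chromosome 7. Dlk1 (chr12:109452823-109463336), Meg3 (chr12:109541001-109571726), Rian (chr12:109603940-109661716) and Mirg (chr12:109729764-109749460) follow each other on the plus strand of chromosome 12. Peg3 (chr7:6703892-6730431, minus strand), Igf2r (chr17:12682406-12769664, minus strand) and Plagl1 (chr10:13060504-13131694, plus strand) lie apart. Igf2r overlaps Airn on the other strand, and H19 overlaps the small predicted gene Gm27483 there. The strand setting of the counting is not given in the sources used here, so reads of such partners might not have been separated.

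The noncoding members are shown first by the microRNAs they host, because a change in a host RNA is often read as a change in its small RNAs. By coordinates, the RefSeq table (GRCm38.p6) places 2 mature microRNAs inside H19, 2 inside Igf2, 3 inside Meg3, 6 inside Rian and 26 inside Mirg. The sequences are given 5′ to 3′, with the seed (bases 2 to 8) in capitals. The pair from H19 is shown because H19 is the most abundant member, miR-370-3p because Rian changed in these data, and the last pair because no other mature microRNAs in the 10 genes shared a seed. They lie at chr7:142577112-142577133 and chr7:142577078-142577099 (minus strand), chr12:109618305-109618326, chr12:109735669-109735692 and chr12:109739132-109739152 (plus strand).
miR-675-5p (H19): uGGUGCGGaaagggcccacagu
miR-675-3p (H19): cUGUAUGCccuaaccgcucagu
miR-370-3p (Rian): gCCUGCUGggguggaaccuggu
miR-453 (Mirg): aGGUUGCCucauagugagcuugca
miR-496a-5p (Mirg): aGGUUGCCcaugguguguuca
The library kit selects messenger RNA and did not measure these small RNAs. The host rows held 757166 reads for H19 and 959 for Mirg over the 16 libraries, whereas the 7 rows for hairpins inside Mirg held 24 reads in all.

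The 250 bases before the RefSeq start (GRCm38.p6) are shown for Peg3 and Igf2r, which changed in the knockout, and for Meg3, which opens the row of RNAs that includes Rian. Of the 10 members, 8 had a window in the promoter table. Capitals mark every match, on either strand, to 4 short motifs. The motif CACGTG is an E-box and TGACGTCA is the cAMP response element. The CCAAT box reads ATTGG on the other strand. The TATA box was searched as TATAAA, which reads as TTTATA on the other strand. The Meg3 window is chr12:109540746-109540995 (plus strand), that of Peg3 chr7:6730420-6730669 (minus strand) and that of Igf2r chr17:12769707-12769956 (minus strand).
Meg3: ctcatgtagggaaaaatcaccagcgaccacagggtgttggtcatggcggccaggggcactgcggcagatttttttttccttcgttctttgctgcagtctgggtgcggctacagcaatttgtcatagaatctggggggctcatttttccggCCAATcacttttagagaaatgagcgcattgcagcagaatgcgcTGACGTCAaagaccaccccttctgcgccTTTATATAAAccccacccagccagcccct
Peg3: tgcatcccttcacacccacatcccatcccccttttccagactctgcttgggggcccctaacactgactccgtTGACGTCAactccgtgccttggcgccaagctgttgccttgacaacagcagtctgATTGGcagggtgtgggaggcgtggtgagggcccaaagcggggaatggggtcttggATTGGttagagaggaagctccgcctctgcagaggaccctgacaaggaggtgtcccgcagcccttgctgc
Igf2r: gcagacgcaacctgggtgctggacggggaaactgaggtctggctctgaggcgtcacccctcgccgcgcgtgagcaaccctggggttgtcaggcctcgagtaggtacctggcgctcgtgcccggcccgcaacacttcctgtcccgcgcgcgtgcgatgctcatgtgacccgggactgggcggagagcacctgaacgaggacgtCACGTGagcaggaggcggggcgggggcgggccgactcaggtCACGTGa
Igf2r held 2 CACGTG matches, and 0.429% of all 32851 windows of that length held 2 or more. TGACGTCA was found once in each of the Meg3 and Peg3 windows and in 1.55% of all windows. Peg3 held 2 CCAAT matches, as did 10.1% of all windows with 2 or more, and Meg3 held 1. The TATAAA and TTTATA matches of Meg3 overlap, and 12.4% of all windows held at least 1 and 2.10% held 2 or more. Meg3 had a second RefSeq start, whose window is not shown and held 0 matches to the 4 motifs. These matches describe letters only.

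Library totals ran from 27591900 to 40862854 counts. The labels were checked on the targeted genes. Bin1 stood at 463 to 620 CPM (read counts scaled to library size, here with TMM factors) in the 8 wild-type samples and at 31.7 to 47.7 in the 8 knockout samples. Dnm2 stood at 50.2 to 67.7 CPM in the 8 samples given PBS and at 20.7 to 31.1 in the 8 given ASO1. The 8 skeletal muscle fibre markers summed to 109720 to 127864 CPM in KO_PBS, below every sample of the other groups (129243 to 206814). The markers did not all move alike. Myh4 averaged 24012 CPM in KO_PBS against 39347 in WT_PBS. Des (4768 against 2837) and Mb (6492 against 4779) had higher means in KO_PBS, and the other markers had lower ones. The part of this lower fibre sum in the KO_PBS levels of H19, Peg3 and Igf2r described below was not tested.

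H19 was far above the other members. Per kilobase of exon sequence, the mean level in WT_PBS was 415 ± 100 CPM per kb (SD, n = 4) for H19, which ranked 64 of 29730 genes on this scale. Igf2r followed at 10.7 ± 0.706, Cdkn1c at 6.35 ± 1.37 and Peg3 at 2.99 ± 0.670 CPM per kb. Those 4 were separated from each other in all WT_PBS samples. Meg3 (1.92 ± 0.376) and Rian (1.16 ± 0.417) came next. The sample ranges of Peg3 and Meg3 overlapped, as did those of Meg3 and Rian, although within each of the 4 samples Peg3 was above Meg3 and Meg3 above Rian. Plagl1 (0.240 ± 0.0726), Mirg (0.203 ± 0.0738), Dlk1 (0.0844 ± 0.0442) and Igf2 (0.0619 ± 0.0263) closed the order, each with a sample range that overlapped the next. In CPM, which is not corrected for length, H19 made up 82.8% of the sum of the 10 members in WT_PBS and 87.1% in KO_PBS. Igf2, the neighbour of H19, had 6 to 36 reads in a library, and Dlk1 had 3 to 29. The plot of levels per length shows the order in the 4 groups. In KO_PBS the order of the first 6 was the same by mean, but Cdkn1c and Peg3 overlapped, and in KO_ASO the samples of Igf2r and Cdkn1c overlapped as well.

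**Figure D1:**
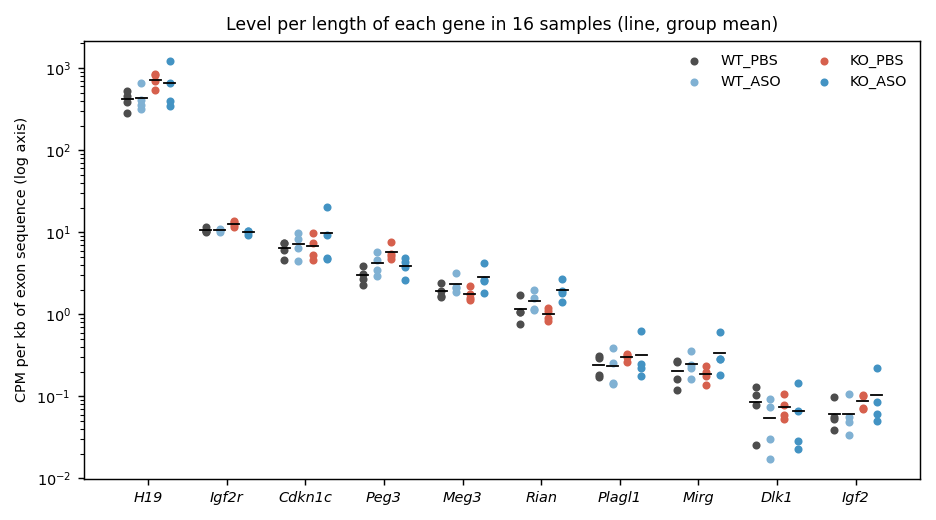
Level of each imprinted gene in CPM per kilobase of exon sequence (vertical log axis), with 1 point per sample coloured by group and a line at each group mean (n = 4). H19 averages 415 CPM per kb in WT_PBS against 10.7 for Igf2r, the next gene, and Dlk1 and Igf2 are at most 0.219 in every sample.

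Of the 10 genes, Peg3 and Igf2r were up-regulated in KO_PBS against WT_PBS, a comparison that asks what loss of Bin1 does without treatment. With edgeR's quasi-likelihood test and an adjusted p under 0.05, these 2 of 10 members compare with 12.6% of all 14960 genes tested (7.43% higher, 5.12% lower). The members' median log2 fold change was 0.17, against -0.01 for all genes tested. Without KO_PBS replicate 3 it was 0.057, with 5 of 10 estimates above 0 in place of 6, and without scaling it was 0.32, where the median of all genes was 0.14. In KO_ASO against KO_PBS, which asks what ASO1 does in the knockout, Rian was up-regulated and Igf2r down-regulated, 2 of 10 members against 3.64% of all genes (0.802% higher, 2.83% lower). The median of the members was 0.14, against 0.01 for all genes, with 6 of 10 estimates above 0. Without KO_ASO replicate 4 this median was -0.37 and 3 of 10 were above 0. These comparisons share the KO_PBS samples, so opposite signs in them are not independent of each other. In WT_ASO against WT_PBS, 0 members were called by edgeR, by DESeq2 or by limma-voom, 1 member (Peg3) had an unadjusted p under 0.05, beside 6.45% of all genes at that p and 0.00668% called. The groups of H19 and Peg3 did not overlap in the first of these comparisons and those of Rian and Igf2r in the second, against 20.4% and 10.4% of all genes. In WT_ASO against WT_PBS, KO_ASO against WT_PBS and KO_ASO against WT_ASO, 0 members had groups that did not overlap, against 3.22%, 5.39% and 6.97% of all genes.

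**Figure D2:**
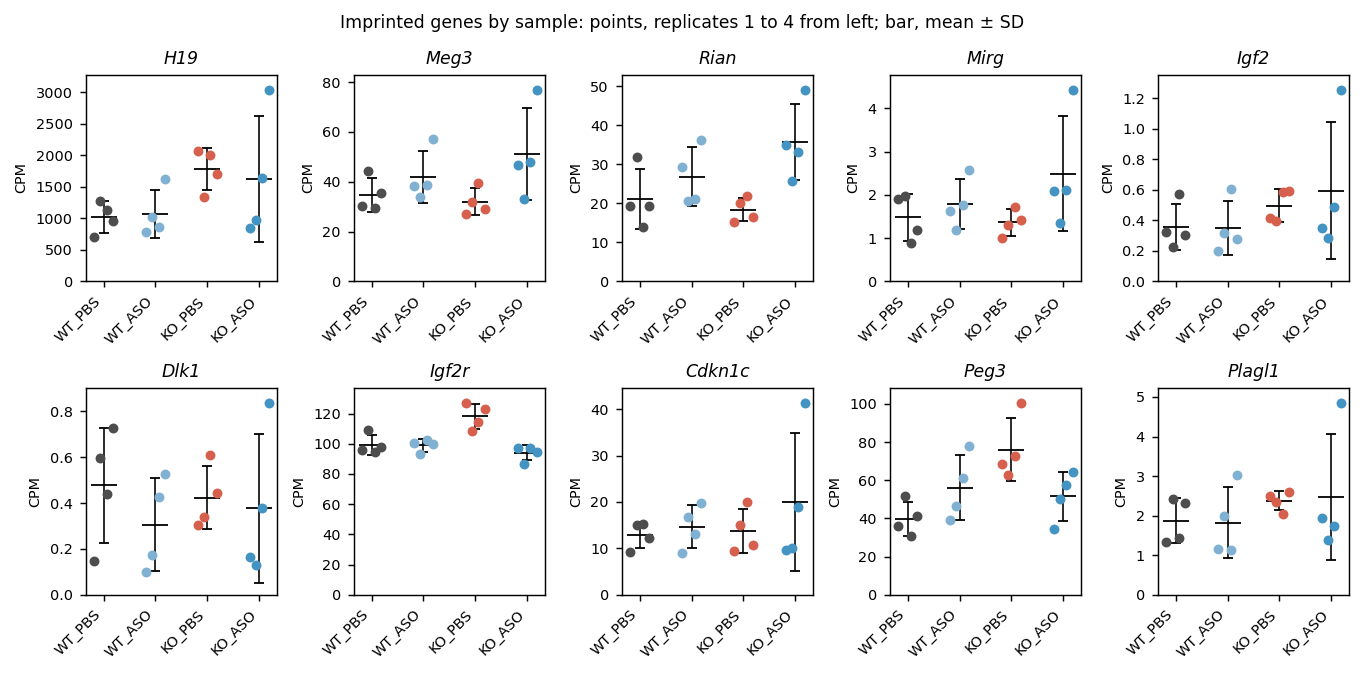
CPM of the 10 genes (vertical axes from 0, a separate scale per gene) in the 4 groups, with 1 point per sample in the order of replicates 1 to 4 and a bar for the mean ± SD (n = 4). Every KO_PBS sample lies above every WT_PBS sample for H19 and Peg3, and replicate 4 of KO_ASO is the highest of its group in 9 of the 10 genes.

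H19, a noncoding RNA, stood at 707, 1280, 1136 and 963 CPM in the 4 WT_PBS samples. It stood at 2062, 1347, 2007 and 1710 CPM in KO_PBS. All KO_PBS samples were above all WT_PBS samples. The log2 fold change was 0.80 (SE 0.35) and did not pass the test over all genes (edgeR, adjusted p = 0.147), while the two-sided exact permutation test of 4 against 4 samples gave p = 0.0286, the smallest it can give. With only the 8 samples of both groups in the fit, the same difference passed (0.81, SE 0.19, edgeR adjusted p = 0.0233).

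With ASO1 the H19 levels spread widely. The WT_ASO samples had 786, 1016, 868 and 1619 CPM, the first 3 within the range of WT_PBS and replicate 4 above it. The KO_ASO samples had 849, 980, 1637 and 3037 CPM, so that replicates 1 and 2 lay with the wild type and replicate 4 above every other sample of the study. The coefficient of variation was 61.6% in KO_ASO against 18.4% in KO_PBS. The log2 fold change of KO_ASO against KO_PBS was -0.13 (SE 0.34, edgeR adjusted p = 0.901), and -0.62 when replicate 4 was left out (edgeR adjusted p = 0.222). The summed level of the 8 fibroblast markers also differed between samples. It ran from 1120 to 1310 CPM in WT_PBS, from 1439 to 2245 in KO_PBS and from 647 to 1638 in WT_ASO, and was 719, 793, 1384 and 1667 CPM in KO_ASO replicates 1 to 4. Of these markers 3 of 8 (Pdgfra, Dpt and Gsn) rose in KO_PBS against WT_PBS, beside 7.43% of all genes called higher, and all 8 were detected. Their part in the H19 levels was not tested. Since whole muscle was sequenced, fewer cells of a type and less RNA per cell cannot be told apart here or below.

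The noncoding RNAs of chromosome 12 had a different order of groups, with KO_PBS lowest and KO_ASO highest by mean. Rian, which hosts box C/D small nucleolar RNAs and microRNAs, stood at 15.2, 20.003, 21.8 and 16.5 CPM in KO_PBS and at 35.0, 25.7, 33.2 and 49.0 CPM in KO_ASO. The groups did not overlap. Rian rose by a log2 fold change of 0.96 (SE 0.25, edgeR adjusted p = 0.0481, exact permutation p = 0.0286). The call sits close to the threshold: it was lost in 11 of the 16 fits that left out 1 library (edgeR adjusted p between 0.0502 and 0.160), although the fold change stayed between 0.77 and 1.076. It was also lost without scaling (edgeR adjusted p = 0.0667) and without the filter on low counts (0.149). In the same comparison the fibre marker sum was 109720 to 127864 CPM in KO_PBS and 129243 to 150317 CPM in KO_ASO, and the endothelial sum ran from 408 to 565 CPM in KO_PBS and from 546 to 605 in KO_ASO. Their part in the levels of Rian, Meg3 and Mirg was not tested.

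Rian had 19.3, 31.8, 13.9 and 19.3 CPM in WT_PBS and 29.3, 20.5, 21.01 and 36.3 CPM in WT_ASO. The samples of both wild-type groups overlapped those of KO_PBS and KO_ASO. The difference between KO_PBS and WT_PBS was -0.19 (SE 0.25, edgeR adjusted p = 0.675), and that between WT_ASO and WT_PBS was 0.35 (SE 0.25, edgeR adjusted p = 0.861). For KO_ASO against WT_PBS the Rian estimate was 0.77 (SE 0.25, edgeR adjusted p = 0.444). The effect of ASO1 in knockout minus that in wild type, the interaction, was 0.61 (SE 0.35, edgeR adjusted p = 0.515), so a difference between genotypes in the response of Rian was not established.

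Meg3, the first RNA of the same row, stood at 27.2, 32.0, 39.6 and 29.0 CPM in KO_PBS and at 46.6, 33.2, 47.9 and 76.9 CPM in KO_ASO. Replicate 2 of KO_ASO lay within KO_PBS. The log2 fold change was 0.68 (SE 0.23) and did not pass with edgeR (adjusted p = 0.114, exact permutation p = 0.0571), whereas DESeq2 called it (adjusted p = 0.0452) among 1056 genes. With limma-voom it was 0.47 (adjusted p = 0.141). Without replicate 4 of both ASO1 groups it was 0.41 (edgeR adjusted p = 0.157). Mirg, the last and least abundant of the row, stood at 0.993 to 1.73 CPM in KO_PBS and at 2.09, 1.34, 2.11 and 4.42 CPM in KO_ASO, with a log2 fold change of 0.86 (SE 0.35, edgeR adjusted p = 0.193). In KO_PBS against WT_PBS, Meg3 (-0.12, SE 0.23) and Mirg (-0.10, SE 0.35) had small differences whose sign turned without TMM scaling (0.035 and 0.047). Without scaling, the median of all genes in that comparison shifted to 0.14. In wild type given ASO1, Meg3 had 38.3, 33.7, 38.6 and 57.3 CPM and Mirg 1.64, 1.19, 1.76 and 2.58 CPM, with replicate 4 again the highest. Neither passed against WT_PBS (edgeR adjusted p of 0.881 and 0.940).

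Among the signals and their receptor, Igf2r was the member that was called in both comparisons. Igf2r binds IGF2 and mannose 6-phosphate and removes IGF2 from the cell surface. It had 96.1, 108.9, 94.5 and 97.7 CPM in WT_PBS and 127, 108.6, 114 and 123 CPM in KO_PBS. KO_PBS was higher except that its replicate 2 lay just under WT_PBS replicate 2. The increase was small, with a log2 fold change of 0.25 (SE 0.07, edgeR adjusted p = 0.0318, exact permutation p = 0.0571). The call was lost when WT_PBS replicate 1, 3 or 4 or KO_PBS replicate 1 or 4 was left out (edgeR adjusted p between 0.0642 and 0.104), when only the 8 samples were fitted (edgeR adjusted p = 0.0528) and without the filter on low counts (0.101).

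In KO_ASO, Igf2r stood at 96.9, 86.6, 97.4 and 94.8 CPM, below every KO_PBS sample and inside or below the range of the wild type. It fell by 0.33 on the log2 scale against KO_PBS (SE 0.07, edgeR adjusted p = 0.0192, exact permutation p = 0.0286). Without KO_PBS replicate 1 the edgeR adjusted p was 0.0657 and without KO_ASO replicate 2 it was 0.0546, and with only the 8 samples fitted it was 0.0606. The WT_ASO samples (100.5, 93.0, 102.6 and 99.6 CPM) overlapped WT_PBS, and the difference did not pass (log2 fold change -0.0049, SE 0.07, edgeR adjusted p = 0.997). The interaction was -0.33 (SE 0.10) and did not pass with edgeR (adjusted p = 0.175), but passed with DESeq2 (adjusted p = 0.0384), which called 385 genes there.

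Of all genes outside the 10, those with the pattern most similar to Igf2r over the 16 samples, group differences included, were Csf1r (Pearson r = 0.92), Slc41a2 (0.90) and Cd163 (0.88), of which Csf1r and Cd163 are on the macrophage list. All 8 macrophage markers rose in KO_PBS against WT_PBS, beside 7.43% of all genes called higher. In KO_ASO against KO_PBS 6 of 8 fell, beside 2.83% of all genes called lower. Their summed level ran from 45.1 to 73.3 CPM in WT_PBS, 46.9 to 101 in WT_ASO, 117 to 352 in KO_PBS and 48.0 to 73.6 in KO_ASO, and no marker was absent. Their part in the Igf2r level was not tested. Airn, the noncoding RNA on the other strand of Igf2r, was not called in either comparison. Its log2 fold change was -0.25 (SE 0.16, edgeR adjusted p = 0.352) in KO_PBS against WT_PBS and 0.032 (SE 0.17, edgeR adjusted p = 0.952) in KO_ASO against KO_PBS.

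Igf2 and Dlk1, the secreted and membrane-bound signals, were weakly detected. Igf2 ranged from 0.196 to 0.607 CPM in the wild-type groups, from 0.397 to 0.592 in KO_PBS and from 0.288 to 1.25 in KO_ASO. Its log2 fold change in KO_PBS against WT_PBS was 0.47 with an SE of 0.46 (edgeR adjusted p = 0.554). Dlk1 ranged from 0.0982 to 0.836 CPM over the 16 samples, and its largest difference, -0.62 in WT_ASO against WT_PBS, had an SE of 0.59. No difference of either gene passed in any of the 5 comparisons of groups, and the standard errors of 0.44 to 0.61 leave large differences in both directions within range.

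Cdkn1c, which encodes an inhibitor of cyclin-dependent kinases, had means close to each other in 3 of the 4 groups: 12.96 ± 2.79 in WT_PBS, 14.7 ± 4.60 in WT_ASO and 13.8 ± 4.77 in KO_PBS (SD, n = 4). In KO_ASO its samples had 9.69, 9.97, 18.9 and 41.3 CPM. Replicate 4 was the highest and the mean was 19.95. The log2 fold change against KO_PBS went from 0.53 (SE 0.41, edgeR adjusted p = 0.565) to -0.11 without it.

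Peg3 had the largest difference of the 10 in the knockout. This zinc-finger gene, expressed in muscle stem cells and other progenitors, stood at 35.9, 51.6, 30.7 and 41.1 CPM in WT_PBS and at 68.3, 62.8, 72.6 and 100.3 CPM in KO_PBS. All KO_PBS samples were above all WT_PBS samples. Peg3 was up-regulated with a log2 fold change of 0.93 (SE 0.23, edgeR adjusted p = 0.0162, exact permutation p = 0.0286). The call held in all 16 fits without 1 library (edgeR adjusted p up to 0.0498) and was lost without the filter on low counts, when more genes were tested (adjusted p = 0.0543).

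With ASO1, Peg3 lay between these levels. It had 34.5, 50.01, 57.3 and 64.4 CPM in KO_ASO and 39.0, 46.5, 61.1 and 77.7 CPM in WT_ASO. Replicate 4 of KO_ASO overlapped the lower end of KO_PBS, and WT_ASO reached from the WT_PBS range into that of KO_PBS. The log2 fold change was -0.56 (SE 0.23, edgeR adjusted p = 0.206) in KO_ASO against KO_PBS and 0.50 (SE 0.23, edgeR adjusted p = 0.773) in WT_ASO against WT_PBS. Their difference, the interaction, was -1.06 (SE 0.33, edgeR adjusted p = 0.173). The genes most similar to Peg3 over the 16 samples were Tlr7 (Pearson r = 0.87), Tceal8 (0.87) and Ifi204 (0.87). The sparse Igf2 had a top value as high (Timm10b, 0.87), so an r of this size is not particular to Peg3. The macrophage sums given for Igf2r were also highest in KO_PBS. The fibroblast sums given for H19 ran from 1439 to 2245 CPM in KO_PBS, against 1120 to 1310 CPM in WT_PBS. Ranked by fibroblast sum, samples fell in the order of Peg3 within WT_PBS and within KO_ASO. Within KO_PBS and within WT_ASO the orders differed. The part of macrophages or fibroblasts in the Peg3 level was not tested. Of 9 tested satellite cell and regeneration markers, Pax7, Myf5 and Chodl fell and Myog and Myh8 rose in KO_PBS against WT_PBS. Over all genes 5.12% were called lower and 7.43% higher there.

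Zim1 and Usp29, the imprinted neighbours of Peg3, did not pass in KO_PBS against WT_PBS, with log2 fold changes of 0.42 (SE 0.17, edgeR adjusted p = 0.117) and -0.66 (SE 0.36, edgeR adjusted p = 0.254). Plagl1, which encodes a zinc-finger activator of other imprinted genes, was at 1.35 to 2.42 CPM in WT_PBS and 2.05 to 2.59 CPM in KO_PBS. The difference was 0.34 (SE 0.38, edgeR adjusted p = 0.605), and the groups overlapped.

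**Figure D3:**
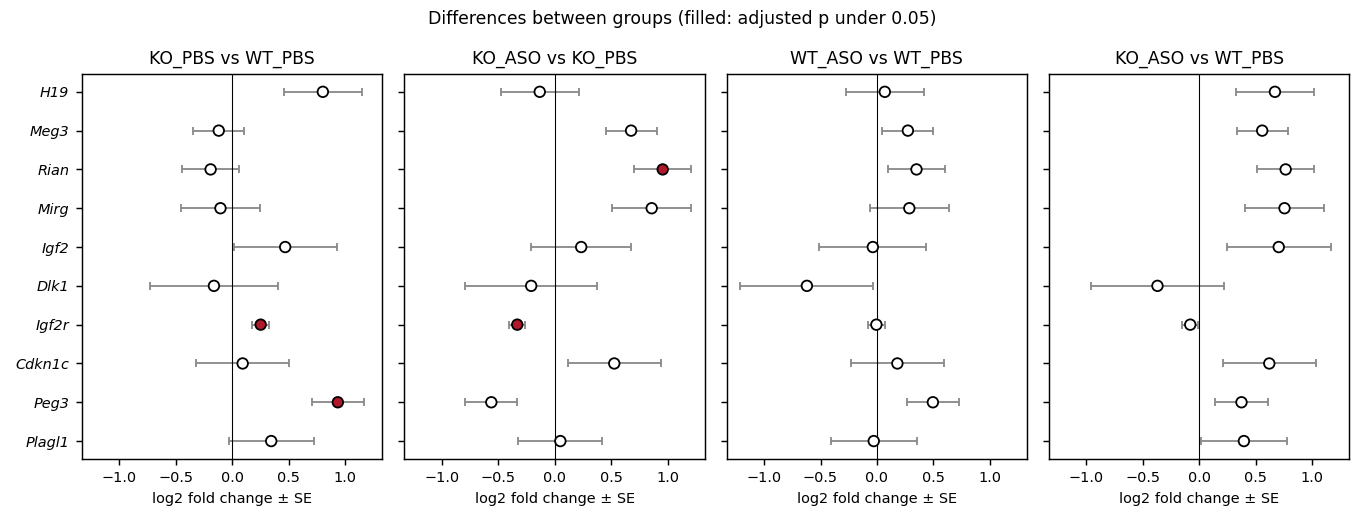
Log2 fold change with its standard error (horizontal axis) for the 10 genes in 4 comparisons, fitted with edgeR on all 16 samples, with filled points for an adjusted p under 0.05. Peg3 (0.93) and Igf2r (0.25) are filled in KO_PBS against WT_PBS and Rian (0.96) and Igf2r (-0.33) in KO_ASO against KO_PBS, and none is filled in the panels for WT_ASO and KO_ASO against WT_PBS.

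Treated knockout samples were also set against both wild-type groups, which asks what difference remained under treatment. In KO_ASO against WT_PBS, 0 members were called by edgeR, DESeq2 or limma-voom and 3 (Meg3, Rian and Mirg) had an unadjusted p under 0.05, beside 8.22% of all genes at that p and 0.0401% called. The estimates were positive for 8 of 10 members, with a median of 0.59 against -0.0024 for all genes. Without KO_ASO replicate 4 they were positive for 6 of 10, with a median of 0.12. With all samples Peg3 stood at 0.37 (SE 0.23) and Igf2r at -0.080 (SE 0.07). In KO_ASO against WT_ASO, 0 members were called by the same 3 tools, 0 had an unadjusted p under 0.05, beside 15.1% of all genes at that p and 0.0735% called. For the interaction, 0 members were called by edgeR and 2 (Igf2r and Peg3) had an unadjusted p under 0.05, beside 12.7% of all genes at that p and 0.575% called. DESeq2 called 1 member (Igf2r) and limma-voom 0.

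Within a group most pairs of members moved in the same direction from mouse to mouse. How often pairs of other genes do so was not tested, so this is not shown to be particular to the members. After removal of the group means, 43 of 45 pairs of members had a positive Pearson r over the 16 samples, and 9 pairs passed by Pearson r and 2 by Spearman's rho after Benjamini-Hochberg adjustment over the 45 pairs (permutation within groups, 100000 resamples). The closest pairs were those of the chromosome 12 row. Meg3 and Rian had r = 0.88 and Spearman's rho = 0.86 (permutation p = 6.00e-05 and 0.000270, adjusted 0.00270 and 0.0121), and r = 0.85 without the 2 samples farthest from the median of Meg3. Rian and Mirg had r = 0.85 and rho = 0.81 (permutation p = 0.000600 and 0.00145, adjusted 0.0135 and 0.0326), and r = 0.81 without 2 samples. H19 and Cdkn1c, which lie in the same end of chromosome 7, had r = 0.84 and rho = 0.75 (permutation p = 0.00257 and 0.00690, adjusted 0.0231 and 0.0703), and r = 0.68 without 2 samples. Pairs on different chromosomes passed by r as well: H19 and Dlk1 (0.80), Dlk1 and Cdkn1c (0.80), H19 and Plagl1 (0.78), and Meg3 and Cdkn1c (0.77). H19 and its neighbour Igf2 did not pass (r = 0.54, adjusted permutation p = 0.203). The points of any pair come from the same libraries and share their depth.

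KO_ASO replicate 4 was the highest of its group in 9 of 10 members, all but Igf2r, and WT_ASO replicate 4 in 8 of 10, all but Igf2 and Igf2r. KO_ASO replicate 4 was also the library with the lowest total, 27591900 counts. Its summed markers of fibroblasts (1667 CPM), Schwann cells (101 CPM) and endothelial cells (605 CPM) were the highest of its group. In WT_ASO replicate 4 the Schwann cell (154 CPM) and endothelial (580.5 CPM) sums were the highest of the group, and the fibroblast sum (1555 CPM) was below that of replicate 3 (1638 CPM). Their part was not tested. Without both libraries 1 of the 45 pairs passed, Meg3 and Rian (r = 0.84, rho = 0.82, permutation p = 0.000490 and 0.00197, adjusted 0.0220 and 0.0886, n = 14 samples). Without both, Rian differed between KO_ASO and KO_PBS by 0.77 (edgeR adjusted p = 0.0653), Meg3 by 0.41 (0.157), Peg3 by -0.69 (0.0863) and H19 by -0.62 (0.142). The H19 difference between KO_PBS and WT_PBS passed (0.80, edgeR adjusted p = 0.0253).

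**Figure D4:**
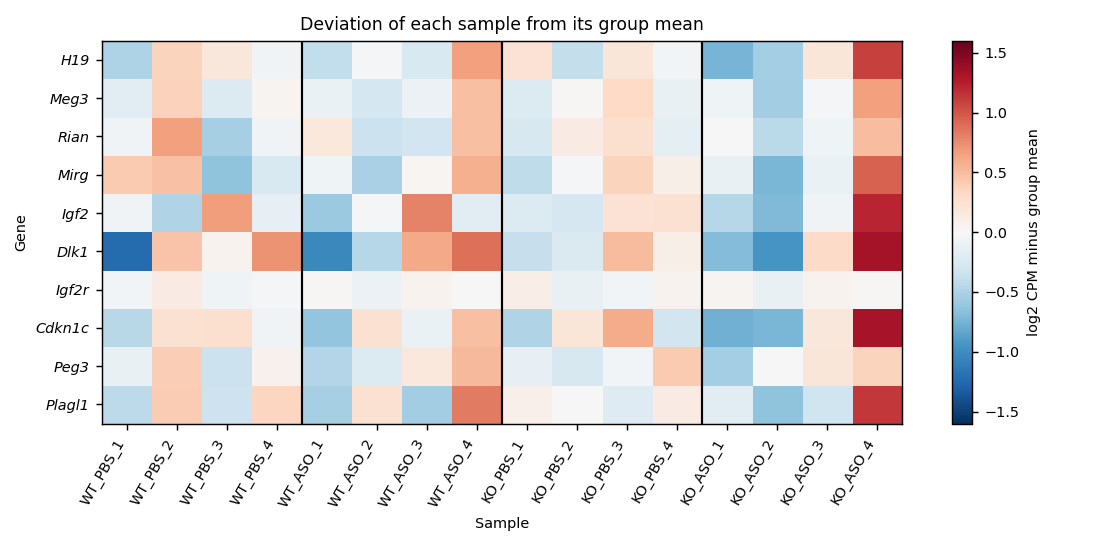
Log2 CPM of each gene (rows) in each of the 16 samples (columns) minus the mean of its group, with red above and blue below the mean. Replicate 4 of KO_ASO is above the group mean in all rows, though by only 0.014 for Igf2r, and Dlk1 has the widest range, from -1.23 in WT_PBS replicate 1 to 1.33 in KO_ASO replicate 4.

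Igf2r was the steadiest member between mice, with a coefficient of variation of 4.19% to 6.94% in the 4 groups, against 16.5% to 36.1% for Rian and 32.3% to 86.5% for Dlk1. The genes most similar in pattern to the other members over the 16 samples, by Pearson r, were Scarf2 (0.93), Ppic (0.91) and Mxra8 (0.91) for H19. For Meg3 they were Nasp (0.84), Col28a1 (0.79) and Jaml (0.78), and for Rian they were Nasp (0.84), Jaml (0.83) and 2810029C07Rik (0.80). Mirg was followed most closely by Igtp (0.82), Nasp (0.81) and H2-K1 (0.77). Cdkn1c had Shroom2 (0.86), Mapk8ip1 (0.85) and Gm43719 (0.83), and Plagl1 had Apaf1 (0.92), Esco2 (0.87) and Selenof (0.86). For the sparse Igf2 and Dlk1 the likeness is given for completeness only, with Timm10b (0.87), 1700017B05Rik (0.86) and Sh3bp1 (0.85) for Igf2 and Slc18a1 (0.86), Aig1 (0.86) and Ifnar2 (0.85) for Dlk1. Each value is a maximum picked from all genes, and how high such a maximum runs without any relation was not tested.

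Of 37 other imprinted genes, 36 were in the table and 29 were tested. In KO_PBS against WT_PBS 4 of the 29 were called, a share near the 12.6% of all genes. Those higher were 3: Peg10 (log2 fold change 1.41, SE 0.38, edgeR adjusted p = 0.0224), the matrix proteoglycan Dcn (0.58, SE 0.17, adjusted p = 0.0343) and the tetraspanin Cd81 (0.43, SE 0.12, adjusted p = 0.0256). The amino acid transporter Slc38a4 fell by 1.12 (SE 0.28, adjusted p = 0.0183). Their median was -0.03, against -0.01 for all genes tested. In KO_ASO against KO_PBS, 1 of 29 fell, Dcn (-0.68, SE 0.17, adjusted p = 0.0390), again near the 3.64% of all genes. The mean of Dcn was highest in KO_PBS (214 CPM, against 132 to 143 in the other groups), as was the median of the fibroblast sums. The part of those cells in the Dcn level was not tested, nor was whether these genes are imprinted in this muscle. Of a further 19 genes of the IGF axis (IGF1, receptors, binding proteins and their partners) 15 were tested and 2 called in KO_PBS against WT_PBS, also near 12.6%. Pappa2, a protease that cleaves IGF-binding proteins, rose by 2.93 (SE 0.85, adjusted p = 0.0341) from a mean of 0.0673 to 0.568 CPM. It had 10 to 47 reads in KO_PBS and 0 to 13 elsewhere, so it passed the filter on low counts through the group where it is high, and 1 KO_PBS sample at 1.33 CPM stood above a group median of 0.349. Igfals, the acid-labile subunit that keeps IGF complexes in the blood, fell by 1.37 (SE 0.40, adjusted p = 0.0343). In KO_ASO against KO_PBS, 0 of these 15 were called by edgeR and 4 had an unadjusted p under 0.05, beside 17.7% of all genes at that p.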

How the data were processed

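Counts per Ensembl gene in 16 tibialis anterior samples were used. The authors deposited raw counts, 1 column per sample. Tools listed by the submitters, with no roles, are HTSeq 0.6.1p1, STAR 2.5.3a, Bowtie2 2.2.8 and cutadapt 1.10, on GRCm38 (mm10), and per the labels a TruSeq stranded mRNA kit was used. All 29730 identifiers matched GENCODE M21, which gave symbols, coordinates and exon lengths (union of exons).

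Groups came from the sample titles. Genes were filtered with filterByExpr by group, leaving 14960 of 29730. Library sizes were scaled by TMM, and edgeR 4.0.16 (R 4.3.3) was run with robust quasi-likelihood F tests on all 16 samples, 1 mean per group. Benjamini-Hochberg adjustment covered all genes tested, and genes with an adjusted p under 0.05 were called, with no fold limit. SE was the absolute log2 fold change divided by the square root of F. Single differences were also tested with two-sided exact permutation tests of log2 CPM (prior count 2, 70 splits of 4 against 4). The fits were tested on simulated data. Totals ran from 27591900 to 40862854 counts and the common biological coefficient of variation was 18.7%. Counts of replicates differed by more than sampling noise (mean chi-square of 22.6 or more for each pair), so none was a copy of another. Alternatives were DESeq2 1.42.0, limma-voom (limma 3.58.1) with quality weights, RLE or no scaling, no filter, only the groups compared, a replicate block, and leaving out each library or, chosen after seeing the data, both replicates 4 of the ASO1 groups.

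The members, gene lists and tests were chosen with earlier results of these data known. The text names all 10 members, Bin1 and Dnm2, other imprinted and IGF genes called in KO_PBS against WT_PBS or KO_ASO against KO_PBS, and for each member the 3 genes with the highest Pearson r. Airn, Zim1 and Usp29 were added as neighbours after their values were seen, as were the satellite cell and fibroblast markers named.

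Marker lists for 8 cell types were counted in KO_PBS against WT_PBS by edgeR. Over all genes 7.43% were called higher and 5.12% lower. Of skeletal muscle fibre markers 1 of 8 rose and 2 fell. Of smooth muscle and pericyte markers 2 of 7 rose and 2 fell, with Des on both lists. Of endothelial (8), adipocyte (6) and Schwann cell (6) markers 0 were called, with 3, 1 and 0 at an unadjusted p under 0.05, beside 27.3% of all genes.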

Additional observations from a re-analysis of the deposited data

Results flagged for a closer look

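Plagl1 in KO_ASO had a sample far from the others: replicate 4 stood at 4.84 CPM, against 1.93, 1.37 and 1.73 CPM in replicates 1 to 3, and the gap to the nearest sample was 0.840 of the range of the group. Of 40 groups of 4 samples examined (10 genes in 4 groups), this was the 1 that passed Dixon's 95% critical value, and chance flags about 1 in 20 groups. The same library was the highest of KO_ASO in 9 of 10 members. Without it the log2 fold change of Plagl1 between KO_ASO and KO_PBS went from 0.051 to -0.50.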

How the results depend on the processing

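Of the 60 differences (10 members in 5 comparisons and the interaction), 58 kept direction and call with DESeq2, 53 with limma-voom, 55 without scaling, 60 with RLE, 57 without the filter and 58 with the replicate block. With only the groups compared 47 of 50 did, and without both replicates 4 of the ASO1 groups 45 of 60 did. Of 960 fits without 1 library 894 did, 18 lost a call and 48 turned sign. The cause of these changes was not tested, except that the unfiltered fit tests more genes.

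The number of members called in KO_PBS vs WT_PBS was 0 without the filter, 3 without both replicates 4 (H19 added) and 1 to 2 without 1 library. With only the groups compared it was 2, with H19 called and Igf2r not. In KO_ASO vs KO_PBS it was 3 with DESeq2 (Meg3 added), 1 without scaling, without the filter, with only the groups compared and without both replicates 4, and 0 to 2 without 1 library. It was 0 without KO_PBS replicate 1. In the interaction DESeq2 called 1.

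Same-numbered samples had correlations of deviations from -0.078 to 0.44, with 11 of 24 pairs over 0.1. The main fits did not treat them as pairs, and the labels do not link them. Yet 14 of 16 samples correlated best with their own number, and whether same-numbered samples share a batch was not tested. With the replicate block, 1 member was called in KO_ASO vs KO_PBS (Rian at an adjusted p of 0.0688, Plagl1 turning to -0.074), and 2 genes in WT_ASO vs WT_PBS and 44 in KO_ASO vs WT_ASO.

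Over all genes, KO_PBS vs WT_PBS had 997 to 2137 calls without 1 library (997 without KO_PBS replicate 1, 1080 without WT_PBS replicate 4). KO_ASO vs KO_PBS had 1056 with DESeq2, 1190 with limma-voom, 300 with only the groups compared, 983 without both replicates 4 and 208 to 831 without 1 library (208 without KO_PBS replicate 1, 322 without KO_PBS replicate 4, 212, 328, 263 and 831 without KO_ASO replicates 1 to 4). WT_ASO vs WT_PBS had 33 with DESeq2, 3 without the filter, 21 without both and 1 to 4 without 1 library (4 without WT_PBS replicate 2). KO_ASO vs WT_PBS had 95 with DESeq2 and 4 to 11 without 1 library (11 without KO_ASO replicate 3). KO_ASO vs WT_ASO had 422 with DESeq2, 2 with limma-voom, 6 with RLE, 2 with only the groups compared, 4 without both and 2 to 19 without 1 library (19 without KO_PBS replicate 1 or KO_ASO replicate 3). The interaction had 385 with DESeq2 and 23 to 102 without 1 library (23 without WT_PBS replicate 4, 26 without KO_PBS replicate 1). Co-variation within groups had 1 pair without both.

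Signs turned only for differences that were not called. Some were large in the main fit, such as Igf2 in KO_ASO vs WT_ASO (0.74, SE 0.46) and Cdkn1c in KO_ASO vs WT_PBS (0.62, SE 0.41). Without scaling, Meg3 and Mirg went to 0.035 and 0.047 in KO_PBS vs WT_PBS, Plagl1 to -0.036 in KO_ASO vs KO_PBS and Igf2r to 0.027 in KO_ASO vs WT_ASO. With limma-voom, Igf2, Cdkn1c and Plagl1 went to -0.16, -0.0071 and -0.32 in KO_ASO vs KO_PBS and to -0.080, -0.13 and -0.13 in the interaction, and Plagl1 to -0.028 in KO_ASO vs WT_PBS. Without both replicates 4, Igf2, Cdkn1c and Plagl1 went to -0.41, -0.11 and -0.50 in KO_ASO vs KO_PBS and to -0.48, -0.11 and -0.11 in the interaction, H19 and Igf2 to -0.20 and 0.062 in WT_ASO vs WT_PBS, Cdkn1c and Plagl1 to -0.015 and -0.15 in KO_ASO vs WT_PBS, and Igf2, Dlk1 and Cdkn1c to -0.0086, -0.088 and -0.019 in KO_ASO vs WT_ASO.

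Without 1 library the log2 fold changes with a turned sign ranged, in KO_PBS vs WT_PBS, from -0.25 to 0.014 for Meg3, -0.35 to 0.071 for Rian, -0.29 to 0.055 for Mirg, -0.46 to 0.13 for Dlk1 and -0.15 to 0.24 for Cdkn1c. In KO_ASO vs KO_PBS they ranged from -0.62 to 0.082 for H19, -0.41 to 0.45 for Igf2, -0.95 to 0.069 for Dlk1, -0.11 to 0.76 for Cdkn1c and -0.50 to 0.24 for Plagl1. In WT_ASO vs WT_PBS they ranged from -0.20 to 0.20 for H19, -0.43 to 0.30 for Igf2, -0.028 to 0.042 for Igf2r and -0.39 to 0.15 for Plagl1. In KO_ASO vs WT_PBS they ranged from -0.015 to 0.85 for Cdkn1c and -0.15 to 0.59 for Plagl1. In KO_ASO vs WT_ASO they ranged from -0.49 to 0.65 for Dlk1, -0.26 to 0.077 for Peg3, -0.20 to 0.67 for Cdkn1c and -0.12 to 0.78 for Plagl1. In the interaction they ranged from -0.69 to 0.067 for H19, -0.38 to 0.67 for Igf2, -0.32 to 0.82 for Dlk1, -0.29 to 0.59 for Cdkn1c and -0.47 to 0.44 for Plagl1. Counts were lowest, and standard errors largest, for Igf2 and Dlk1.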
